A study of Mus musculus with 12 samples.

Results

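Reln, Lrat, Des, Pdgfra, Pdgfrb, Rgs5, Dcn and Lum are 8 genes by which hepatic stellate cells are commonly recognised. They were taken by symbol from a table of 54227 gene symbols, and each symbol had 1 row. The table covers liver cells of C57Bl/6 mice that carry a Sox9EGFP transgene and were fasted for 16 h. The cells were sorted by green fluorescence into 4 populations. From the least to the most fluorescent these are neg, sub, low and, at the top, high. Total RNA of 12000 cells per population was sequenced, with 3 libraries each. Every population, neg included, came from transgenic mice, and the labels give neither the age nor the sex of the mice, nor how the transgene was built. The gates were set on EGFP; the labels name no stellate cell marker in the sort.

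Stellate cells lie in the space between hepatocytes and the sinusoidal endothelium. They store vitamin A as retinyl esters in lipid droplets, and after injury they lose these droplets and become collagen-producing myofibroblasts. Signalling by platelet-derived growth factors through their receptors is a main driver of their proliferation. Sox9, in contrast, is a transcription factor known in the adult liver for its expression in bile duct cells.

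Recovered depth ranged from 8775387 to 15535588 reads per library and from 9039 to 12687 genes above 0. Sox9 set neg and sub apart from each other and from low and high, but did not separate low from high. Its normalised count was 0 to 0.691 in neg, 3707 to 6653 in sub, 8838 to 17140.4 in low and 11793 to 13969 in high. The widely used housekeeping gene Hprt was listed at 0 in sub 2 and high 2, and Tbp was listed at 0 in sub 2, sub 3 and low 2, so a 0 for a single gene in a single library is given here as listed at 0 and not as absence. The labels do not say whether the 3 libraries of a population came from separate mice, so p-values measure the spread between these libraries only.

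The 8 genes together were high in neg and sub and low in low and high. Their summed normalised count was 10777, 16347 and 23029 in neg 1, 2 and 3 and 16828, 20939 and 24595 in sub 1, 2 and 3. It was 2257, 818 and 1719 in low 1, 2 and 3 and 1905, 1357 and 528 in high 1, 2 and 3. No library of low or high reached the lowest library of neg or sub. The sum made up between 0.100% and 0.224% of the summed values of the neg and sub libraries, and between 0.00466% and 0.0207% of those of low and high. At most 1 of the 8 genes was listed at 0 in any neg or sub library, against 3 to 6 of 8 in each low and high library. In such bulk samples fewer cells of a type and less RNA per cell cannot be told apart.

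**Figure D1:**
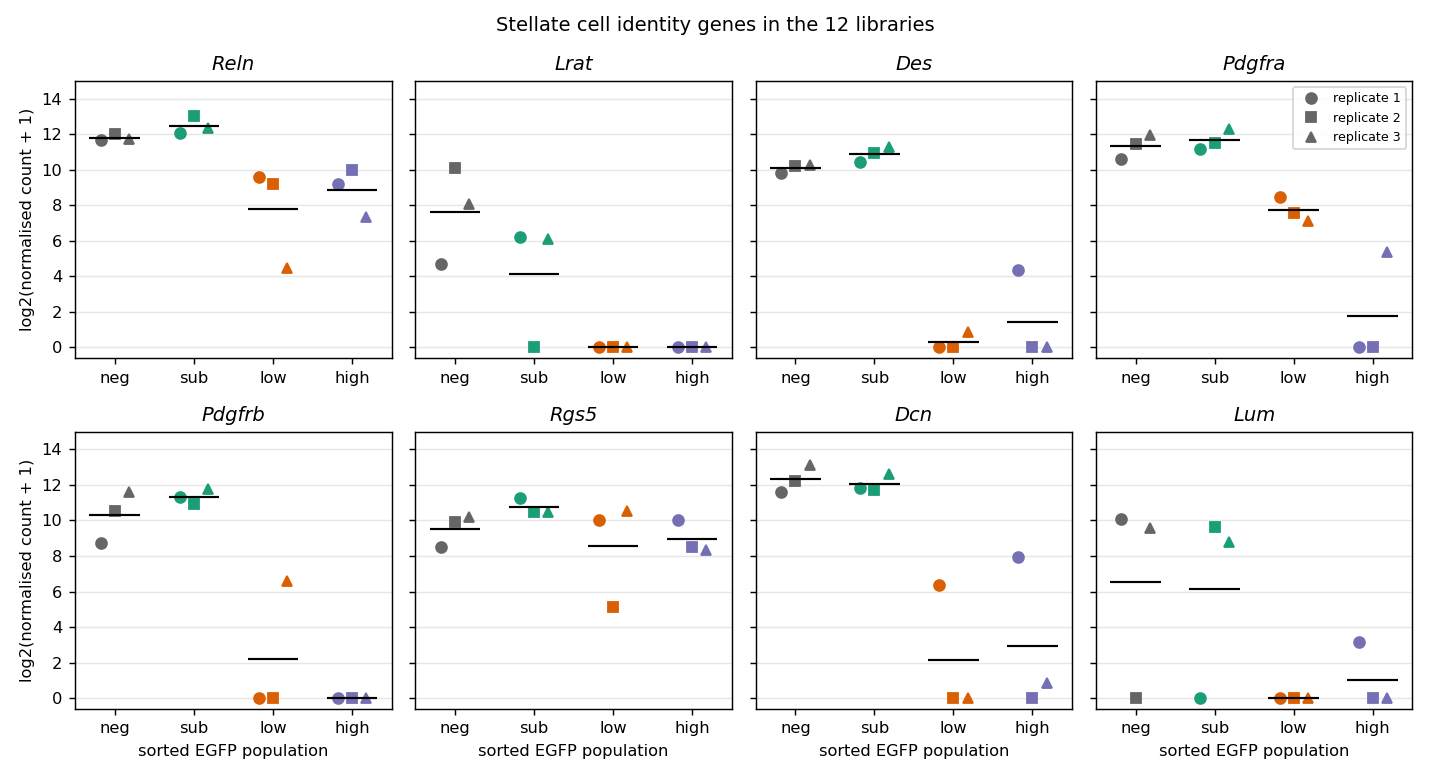
Normalised count of each of the 8 stellate cell genes in each of the 12 libraries, plotted as log2(normalised count + 1), with 1 point per library and a bar at the mean of the 3 libraries of a population. Reln stays above 0 in all 12 libraries, Des, Pdgfrb and Dcn drop to or near 0 in most low and high libraries, and Rgs5 overlaps between neg, low and high.

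A moderated F test over the 4 populations (limma on log2(normalised count + 1), adjusted over all 16128 genes with a mean of at least 10) found that 5 of the 8 genes differed somewhere among the populations at an adjusted p under 0.05. Among all genes tested 4.23% did. The 5 were Pdgfra (adjusted p = 0.00108), Des (0.00405), Dcn (0.0044), Pdgfrb (0.0049) and Reln (0.0208). Lrat (adjusted p = 0.166), Lum (0.447) and Rgs5 (0.726) did not pass. All 8 genes passed the filter on low values. The call for Reln was the least stable: it was lost in 12 of the 20 alternative analyses, 11 of which left out 1 library, with an adjusted p of up to 0.179.

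The 250 bases before the RefSeq transcription start (GRCm38.p6) are shown for 4 of the genes that behaved differently across the gates: Des and Pdgfra, which fell to 0 in most libraries of high, Reln, which kept counts in all 12 libraries, and Rgs5, whose libraries overlapped between neg, low and high. They lie at chr1:75360042-75360291 on the plus strand for Des, chr5:75152001-75152250 on the plus strand for Pdgfra, chr5:22344706-22344955 on the minus strand for Reln and chr1:169655251-169655500 on the plus strand for Rgs5, each written 5′ to 3′ along the gene. Capitals mark matches, on either strand, to the letters searched.
Des: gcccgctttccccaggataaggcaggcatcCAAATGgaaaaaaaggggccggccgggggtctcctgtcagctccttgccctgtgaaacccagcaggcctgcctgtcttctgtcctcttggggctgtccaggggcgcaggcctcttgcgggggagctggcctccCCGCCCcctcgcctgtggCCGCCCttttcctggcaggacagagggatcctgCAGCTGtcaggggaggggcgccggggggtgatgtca
Pdgfra: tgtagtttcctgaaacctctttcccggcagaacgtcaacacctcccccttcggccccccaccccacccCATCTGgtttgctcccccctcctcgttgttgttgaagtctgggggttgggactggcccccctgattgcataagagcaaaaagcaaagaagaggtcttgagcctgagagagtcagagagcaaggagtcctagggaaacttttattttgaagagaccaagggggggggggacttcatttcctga
Reln: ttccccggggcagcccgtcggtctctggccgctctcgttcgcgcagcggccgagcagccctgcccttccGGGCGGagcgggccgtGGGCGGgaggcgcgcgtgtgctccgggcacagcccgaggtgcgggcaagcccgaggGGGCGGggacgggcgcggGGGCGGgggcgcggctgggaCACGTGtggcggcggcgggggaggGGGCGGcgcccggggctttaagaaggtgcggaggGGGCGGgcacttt
Rgs5: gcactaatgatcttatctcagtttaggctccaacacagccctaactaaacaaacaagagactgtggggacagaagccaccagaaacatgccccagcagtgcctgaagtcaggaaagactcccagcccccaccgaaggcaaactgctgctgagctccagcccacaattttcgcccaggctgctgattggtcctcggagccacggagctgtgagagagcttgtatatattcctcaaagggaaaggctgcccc
The letters searched for a GC box were GGGCGG. An E box was written as CANNTG. A binding motif of TEAD factors was searched as GGAATG. For the TATA box the letters were TATAAA. The core motif of nuclear receptors was AGGTCA. The CArG box and the MEF2 site, motifs of muscle genes, were also searched, and no searched motif overlapped another in these 4 windows. Reln had 6 matches to GGGCGG, the farthest 181 bases before the start, and 1 to CANNTG, at 71 bases. Des had 2 matches to GGGCGG, the farther at 87 bases, and 2 to CANNTG, the farther at 220 bases. Pdgfra had 1 match to CANNTG, at 182 bases, and Rgs5 had none to any of the letters. Of the 32851 promoter windows of this length in the RefSeq table, 32.7% held GGGCGG and 66.2% held CANNTG, so neither is particular to these genes. None of the 4 windows held the searched letters of the TEAD motif, the TATA box, the nuclear receptor motif, the CArG box or the MEF2 site, which 12.6%, 12.4%, 14.0%, 1.47% and 2.92% of all windows held. A match is a description of letters and says nothing about binding. A window was at hand for 5 of the 8 genes, the fifth being Lrat. The Lrat window held 1 match to GGAATG at 208 bases, 1 to CANNTG at 199 bases and 1 to GGGCGG at 45 bases.

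Lrat encodes lecithin retinol acyltransferase, the enzyme that makes retinyl esters for storage (chromosome 3, 82892579 to 82903973, minus strand, GRCm38). Its normalised count was 24.9, 1085 and 266 in neg 1, 2 and 3, and 73.0, 0 and 68.8 in sub 1, 2 and 3. It was listed at 0 in all 6 libraries of low and high. The neg and sub libraries overlapped, and neg 2 alone held most of the neg signal. Low lay at least 189.9-fold below neg in mean normalised count, computed against 3 reads per library, but this difference did not pass the test (log2 fold change -7.61 ± 2.43, SE; adjusted p = 0.0857, limma), nor did that of high against neg (adjusted p = 0.0846). Of the 21 alternatives 3 called each of them, DESeq2 (adjusted p = 0.00103 and 0.00127) and limma without neg 1 or without sub 2; the highest values were those of edgeR (0.302 and 0.3).

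Of 12 further retinoid genes, 11 passed the filter on low values, and limma called none lower in any of the 6 comparisons between populations. In low against neg limma called 1 of the 11, edgeR 3 and DESeq2 6. Cyp26b1, a retinoic acid hydroxylase, was 3425, 7266 and 6193 in neg 1, 2 and 3 and 1283, 1917 and 0 in sub 1, 2 and 3. It was 5.20, 0 and 75.6 in low and 0, 31.3 and 330.0 in high, so that neg lay above all other libraries. Its 209-fold difference between low and neg missed the threshold in limma (adjusted p = 0.0585) and was called by DESeq2 (0.00148). Aldh1a1, a retinaldehyde dehydrogenase, was 213, 1.22 and 0 in neg and 1348 to 3096 in sub, 3185 to 7272 in low and 2790.4 to 4787 in high. It rose in sub against neg (log2 fold change 8.12 ± 1.41, SE; adjusted p = 0.00309, limma), and also in low and in high against neg; 1.04% of all genes tested rose in sub against neg. Stra6l, a relative of the retinol uptake receptor Stra6, was listed at 0 in neg 1, 2 and 3 and was 1295, 541 and 1669 in high 1, 2 and 3. It rose in high against neg (adjusted p = 0.0189).

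Reln encodes reelin, a large secreted glycoprotein best known as a signal in brain development and used in liver to mark stellate cells (chromosome 5, 21884454 to 22344702, minus strand). Its normalised count was 3244, 4104 and 3426 in neg 1, 2 and 3. It was 4288, 8510.1 and 5201 in sub 1, 2 and 3. All 3 sub libraries lay above all 3 neg libraries, but the difference was within the error of the test (log2 fold change 0.69 ± 1.07, SE; adjusted p = 0.875, limma). In low the values were 781, 594 and 21.4, and in high 596, 999.5 and 160.1, so that Reln and Rgs5 were the only ones of the 8 genes above 0 in all 12 libraries. Mean Reln was 12.9-fold lower in low than in sub (-4.72 ± 1.07; adjusted p = 0.0464) and 7.71-fold lower in low than in neg (-4.03 ± 1.07; adjusted p = 0.0343). Both calls were lost whichever of the 12 libraries was left out, with adjusted p-values of 0.0702 to 0.262 and 0.0601 to 0.198. Without low 3, the lowest low library, the log2 fold changes were -3.07 and -2.39. High was 6.14-fold lower than neg and 10.3-fold lower than sub, with no overlap between libraries in either comparison, and neither passed in limma (adjusted p = 0.136 and 0.131), though both did without low 3; DESeq2 called both (adjusted p = 0.0419 and 0.00625), and edgeR called high against sub (0.0269). Of the 3 reelin receptor and adaptor genes, Vldlr, Lrp8 and Dab1, limma and edgeR called 0 in low against neg, with 1 at an unadjusted p under 0.05, and DESeq2 called 1. Dab1, the intracellular adaptor, was listed at 0 in neg 1, 2 and 3 and in sub 2, sub 3 and high 3, and lay between 214 and 948 in the other 6 libraries.

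Pdgfra and Pdgfrb encode the alpha and beta receptors for platelet-derived growth factor, tyrosine kinases of mesenchymal cells (chromosome 5, 75152292 to 75198215, and chromosome 18, 61045150 to 61085061, both on the plus strand). Pdgfra was 1564, 2759 and 4035 in neg 1, 2 and 3 and 2331, 2915 and 5102 in sub 1, 2 and 3. It was 357, 190.3 and 139 in low 1, 2 and 3 and 0, 0 and 40.8 in high 1, 2 and 3. Pdgfra thus separated low from high as well as both from neg and sub: all 3 high libraries lay below all 3 low libraries, which lay below all 6 libraries of neg and sub. High was 205-fold lower than neg (log2 fold change -9.54 ± 1.55, SE; adjusted p = 0.000718, limma) and 253-fold lower than sub (-9.88 ± 1.55; adjusted p = 0.00253). Both calls were kept whichever library was left out, and were lost where only the 2 populations compared were fitted (adjusted p = 0.0704 and 0.187, limma). The signal of high came from high 3 alone, so the size of both folds rests on that library. Over the libraries left out, the log2 fold changes ranged from -11.34 to -8.65 against neg and from -11.67 to -8.98 against sub. Low was 15.1-fold lower than sub and 12.2-fold lower than neg, without overlap, and neither difference passed in limma (adjusted p = 0.353 and 0.244), nor in edgeR (0.126 and 0.089); of the 21 alternatives DESeq2 alone called them (0.0225 and 0.0311).

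Between low and high, mean Pdgfra was 16.8-fold lower in high (log2 fold change -5.94 ± 1.55, SE; unadjusted p = 0.00112), which did not pass after adjustment over all genes (adjusted p = 0.727, limma). It passed without high 3 (adjusted p = 0.0428) and in DESeq2 on the recovered reads (0.0394). Libraries lay apart in this direction for 3.28% of all genes tested. In this comparison 0 of the 8 genes passed in limma, where 0% of all genes did, and 1 of 8 had an unadjusted p under 0.05, as did 4.24% of all genes. edgeR called 0 of the 8, and 0.211% of all genes. DESeq2 called 2 of the 8, Pdgfra and Pdgfrb, and 4.01% of all genes.

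Pdgfrb was 429, 1499 and 3085 in neg 1, 2 and 3 and 2602, 1954 and 3487 in sub 1, 2 and 3. It was listed at 0 in low 1 and low 2, was 94.5 in low 3, and was listed at 0 in high 1, 2 and 3. The neg libraries spread over a wide range and overlapped sub, while no low or high library reached either. The closest were low 3 at 94.5 and neg 1 at 429. High lay at least 621-fold below neg (log2 fold change -10.30 ± 2.25, SE; adjusted p = 0.0101, limma), a call kept in every alternative run. High lay at least 996-fold below sub (-11.35 ± 2.25; adjusted p = 0.0196); this call was lost without sub 2 (adjusted p = 0.0613) or sub 3 (0.0552). Low was 53.0-fold below neg (-8.10 ± 2.25, adjusted p = 0.0441, limma), which was lost in 7 of the 12 fits that left out 1 library, with an adjusted p of up to 0.109. It was also lost with the replicate block (0.0517) and with a pseudocount of 0.5 (0.0539). Fitting only the 2 populations compared lost it too (0.196), and likewise lost high against sub (0.0824). Against sub, low was 85.1-fold lower and just missed the threshold (-9.16 ± 2.25; adjusted p = 0.0667), and it passed without low 3, the low library that held all of the signal (adjusted p = 0.0209), and also in edgeR (0.0441), in DESeq2 (0.00427), with a pseudocount of 5 (0.0262) and with a mean of at least 100 (0.0495).

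Of the 4 PDGF ligand genes and the receptor-like gene Pdgfrl, 2 rose in limma in low and in high against neg, Pdgfc and Pdgfd, and limma called none lower in any comparison; of all genes tested 2.55% rose in low against neg and 2.44% in high against neg. Pdgfc, which signals mainly through the alpha receptor, was listed at 0 in neg 1, 2 and 3 and was 11.8, 9.16 and 785 in sub 1, 2 and 3. It was 1058, 1855 and 3537 in low and 866, 1661 and 711 in high. Low lay at least 747-fold above neg (log2 fold change 10.90 ± 2.04, SE; adjusted p = 0.00318, limma), and high at least 375-fold (9.98 ± 2.04; adjusted p = 0.00615). Pdgfd, which signals mainly through the beta receptor, was 14.5, 643 and 0 in neg 1, 2 and 3 and lay between 894 and 2683 in all 9 other libraries. It was 5.06-fold higher in low than in neg (adjusted p = 0.0494) and 9.06-fold higher in high than in neg (adjusted p = 0.0262), both in limma. These calls were not stable: over the alternatives the adjusted p ranged from 0.00313 to 0.459 and from 0.00178 to 0.332, and neither edgeR nor DESeq2 called Pdgfd in either comparison. Both were lost in 11 of the 12 fits that left out 1 library. Without neg 2, the neg library that held most of the signal, the log2 fold changes were 8.14 and 8.84, beside 5.69 and 6.39 with it. Pdgfa was listed at 0 in neg 1, 2 and 3, sub 1, sub 3 and low 3, and lay between 239 and 669 in the other 6 libraries. It did not pass in limma in low or in high against neg (adjusted p = 0.355 and 0.101). In each of these comparisons DESeq2 called 2 of the 5 genes, Pdgfa among them, and edgeR called 1.

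**Figure D2:**
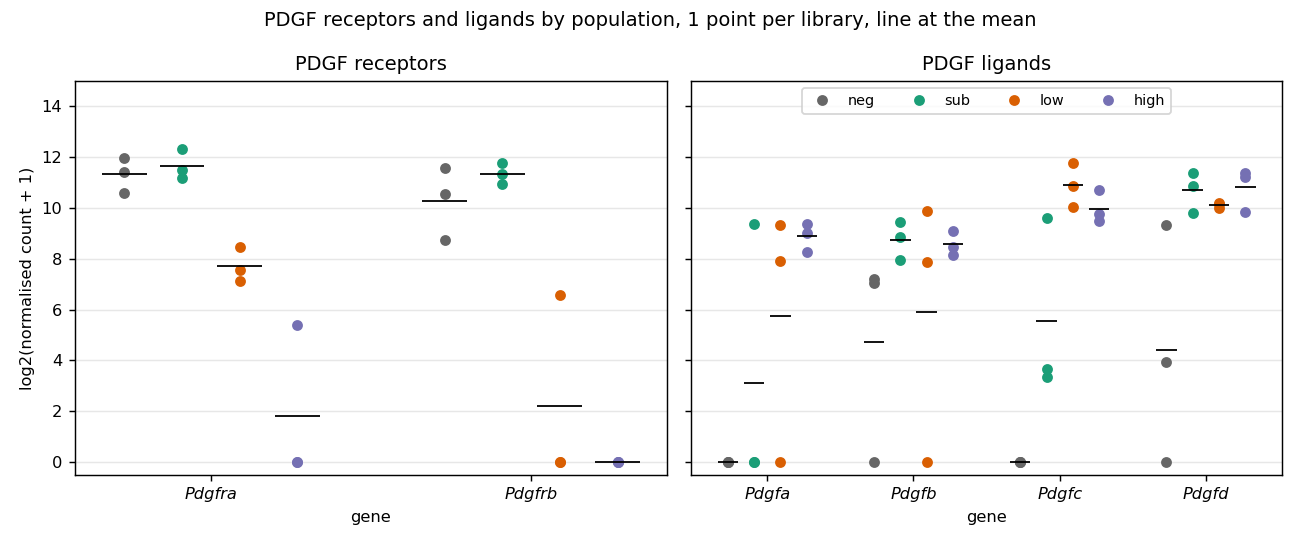
Normalised counts of the PDGF receptors and of other genes of the PDGF family in the 12 libraries, plotted as log2(normalised count + 1), with 1 point per library and a bar at the mean of each population. The receptors are high in neg and sub and listed at 0 in all high libraries except high 3, where Pdgfra is 40.8, while Pdgfc is listed at 0 in all 3 neg libraries and lies between 711 and 3537 in the 6 low and high libraries.

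Rgs5 encodes a regulator of G protein signalling found in pericytes and other mural cells (chromosome 1, 169655501 to 169695813, plus strand). It was 363, 967 and 1157 in neg 1, 2 and 3 and 2496, 1417 and 1436 in sub 1, 2 and 3. In low it was 1036, 34.0 and 1464, and in high 1034, 358 and 326. Apart from Lum, which had a neg library at 0, Rgs5 was the only one of the 8 genes with low and high libraries within the range of neg or above it. It passed in none of the 6 comparisons. The difference of low against neg was -0.98 ± 1.22 (log2 fold change, SE; adjusted p = 0.728, limma), and it changed sign to 0.73 without low 2, and also in edgeR (0.16) and DESeq2 (0.03). All 3 sub libraries lay above all 3 neg and all 3 high libraries, by 2.15-fold and 3.11-fold in the means, and neither difference passed (adjusted p = 0.753 and 0.681). limma and edgeR called 0 of 5 other pericyte genes in low against sub and in low against neg, with 3 at an unadjusted p under 0.05 in each, and DESeq2 called 2 in each. Abcc9, a potassium channel subunit of pericytes, was 957 to 4056 in neg and sub and 80.2 to 970.3 in low and high.

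Des encodes desmin, the intermediate filament of muscle and of rodent stellate cells (chromosome 1, 75360329 to 75368579, plus strand). It was 915, 1180.2 and 1228 in neg 1, 2 and 3 and 1409.8, 1962 and 2537 in sub 1, 2 and 3. It was 0, 0 and 0.822 in low 1, 2 and 3 and 19.9, 0 and 0 in high 1, 2 and 3. Des showed the sharpest step of the 8 genes between sub and low: the lowest sub library held 1409.8 and the highest low library the value of 1 read. Low lay at least 816-fold below sub (log2 fold change -10.62 ± 2.15, SE; adjusted p = 0.0282, limma) and at least 459-fold below neg (-9.81 ± 2.15; adjusted p = 0.0104). High lay 167-fold below neg (-8.64 ± 2.15, adjusted p = 0.0243, limma) and 297-fold below sub (-9.44 ± 2.15, adjusted p = 0.0396). The signal of high came from high 1 alone. Over the libraries left out, the log2 fold changes of high ranged from -10.10 to -7.91 against neg and from -10.90 to -8.71 against sub. The calls against neg were kept whichever library was left out; low against sub was lost without sub 2 (adjusted p = 0.0611), and high against sub without sub 2 (0.0723) or sub 3 (0.0552). Fitting only the 2 populations compared lost low against sub (adjusted p = 0.187, limma), high against sub (0.171) and high against neg (0.0704). High against sub was also lost with a pseudocount of 0.5 (0.0554) and with the replicate block (0.063). The 3 sub libraries lay above the 3 neg libraries, by 1.78-fold in the mean, and this did not pass (adjusted p = 0.998).

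Dcn and Lum encode decorin and lumican, small leucine-rich proteoglycans that bind collagen fibrils. They are neighbours on chromosome 10, at 97479609 to 97518143 and 97565128 to 97572703, both on the plus strand, with 46984 bases between them. Dcn was 3163, 4752 and 9069 in neg 1, 2 and 3 and 3628, 3387 and 6319.9 in sub 1, 2 and 3. It was 82.4, 0 and 0 in low 1, 2 and 3 and 247, 0 and 0.817 in high 1, 2 and 3. Neg and sub overlapped, and the signal of low and of high came almost wholly from library 1 of each. Dcn fell in low against neg (206-fold in the means; log2 fold change -10.20 ± 2.17, SE; adjusted p = 0.00853, limma), in high against neg (68.6-fold; -9.39 ± 2.17; adjusted p = 0.0149), in low against sub (162-fold; -9.93 ± 2.17; adjusted p = 0.0397) and in high against sub (53.9-fold; -9.12 ± 2.17; adjusted p = 0.0499). The calls against sub were lost in 10 of the 12 fits that left out 1 library, with adjusted p-values of up to 0.19 for low and 0.235 for high. Low against neg was lost in 5 of these fits, with an adjusted p of up to 0.081 without neg 3, and high against neg in 7, with up to 0.115 without high 2. In limma, low and high against sub were also lost with a pseudocount of 0.5 (adjusted p = 0.0555 and 0.0773). The same held with no filter on low values (0.0769 and 0.0972). High against sub was lost with equal library totals too (0.0516). Fitting only the 2 populations compared lost every one of these Dcn calls (0.102 to 0.328).

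Lum was far more uneven than its neighbour. It was 1074, 0 and 764 in neg 1, 2 and 3 and 0, 793 and 444 in sub 1, 2 and 3. It was listed at 0 in all 3 low libraries and in high 2 and high 3, and was 7.79 in high 1. As 1 neg and 1 sub library were themselves listed at 0, low and high overlapped both. Low lay at least 254-fold below neg in the means. limma called Lum in no comparison (adjusted p = 0.299 for low against neg), and neither did edgeR, while DESeq2 called it lower in low against neg (adjusted p = 0.00184) and in low against sub (0.00481). Of 10 other small leucine-rich proteoglycan genes, 7 passed the filter on low values. In limma 2 of them fell in low against sub, Fmod and Prelp, 3 fell in low against neg, Bgn, Fmod and Prelp, Fmod fell in each of high against neg and high against sub, and none was called higher. DESeq2 called 6 of the 7 in each of low against neg and high against neg. Among these was Omd, osteomodulin, whose means ran the other way: it was listed at 0 in all 3 neg libraries, with means of 56.0 in low and 162 in high (adjusted p of limma = 0.627 and 0.675, of DESeq2 = 1.53e-06 and 2.15e-07). These means rest on few libraries: Omd was 6.68, 161 and 0 in low 1, 2 and 3 and 487, 0 and 0 in high 1, 2 and 3. In sub 1, 2 and 3 it was 197, 0 and 1016. Fmod, fibromodulin, was 574 to 1515 in the 6 neg and sub libraries and was listed at 0 in all 6 low and high libraries, at least 535-fold lower in low than in sub (adjusted p = 0.0361). Prelp was 2357 to 9616 in neg and sub and 0.822 to 987 in low and high, 23.3-fold lower in low than in sub (adjusted p = 0.0194).

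**Figure D3:**
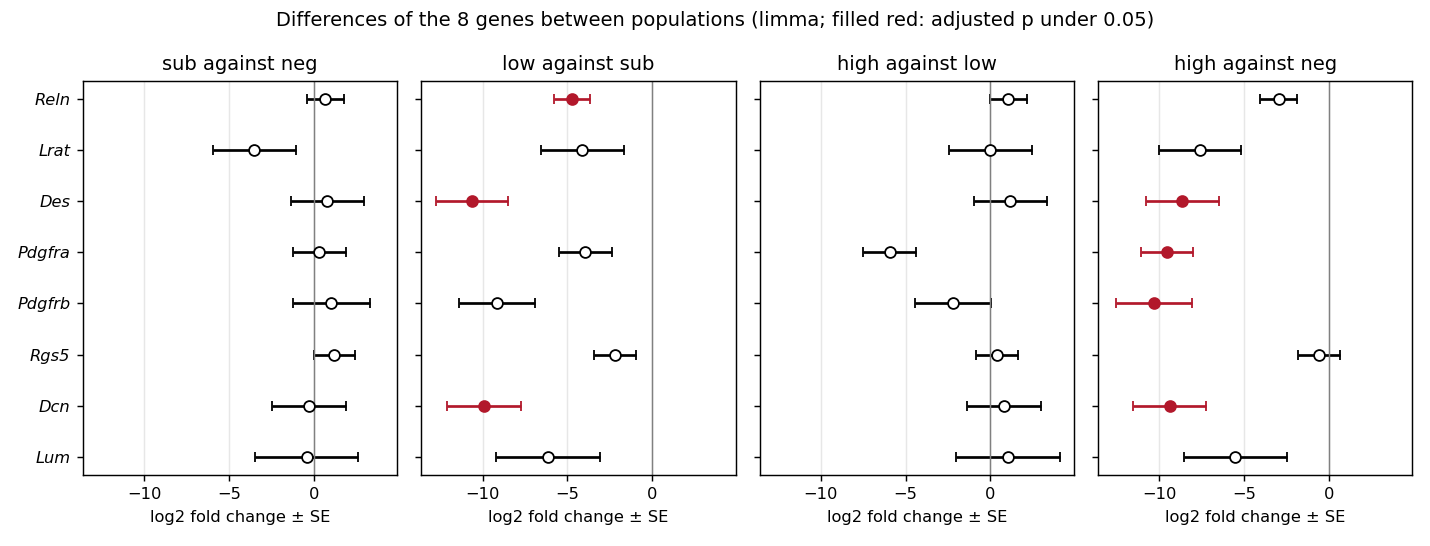
Log2 fold change of each of the 8 genes between neighbouring populations and for high against neg, with bars of 1 SE from the limma fit and filled points where the adjusted p over all genes tested was under 0.05. Sub against neg lies between -3.50 and 1.21, and the differences of low against sub and of high against neg are all below 0, with Rgs5 closest to 0.

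Counted by comparison, 0 of the 8 genes passed in sub against neg, where 1.19% of all genes tested passed in either direction; 0 of 8 had an unadjusted p under 0.05, beside 9.54% of all genes, and edgeR and DESeq2 on the recovered reads called 0 of 8 as well, beside 1.28% and 10.5% of all genes. Reln, Des and Rgs5 had all 3 sub libraries above all 3 neg libraries, which held for 4.69% of all genes. In low against sub 3 of 8 fell (Reln, Des and Dcn), where 0.614% of all genes fell. In low against neg 4 of 8 fell (Reln, Des, Pdgfrb and Dcn), where 2.15% of all genes fell. In high against neg 4 of 8 fell (Des, Pdgfra, Pdgfrb and Dcn), where 2.25% of all genes fell, and the same 4 fell in high against sub, where 0.868% did. limma called none of the 8 higher in any comparison. Libraries lay wholly apart, lower in low, for 5 of the 8 genes in low against sub, where 5.99% of all genes did so. They did so for 6 of 8 in each of low against neg (8.52% of all genes), high against neg (8.61%) and high against sub (5.91%). The median log2 fold change of the 8 genes was -5.43 for low against sub and -8.13 for high against neg, beside medians over all genes tested of 0 and 0.13. Fitting only the 2 populations compared left 0, 1, 1 and 0 of the 8 called in low against sub, low against neg, high against neg and high against sub, beside 0, 203, 341 and 8 of all 16128 genes tested. DESeq2 called 7 of 8 in each of low against sub and low against neg, beside 9.88% and 14.6% of all genes in either direction. It called 6 in high against neg and 5 in high against sub, beside 14.0% and 9.21% of all genes. edgeR called 4, 4, 4 and 5 of 8 in low against sub, low against neg, high against neg and high against sub. The shares of all genes in edgeR were 1.11%, 3.73%, 3.84% and 1.41%. These comparisons share libraries and are not independent of each other.

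Per kilobase of the longest protein-coding transcript (GENCODE M21), Dcn had the highest level of the 8 genes in both neg and sub. The length used for Dcn was 1758 bases, beside 5838 exonic bases over all its transcripts. The size of its lead and the overlaps given here depend on that choice. Its mean was 3220.4 normalised counts per kb in neg, above Pdgfra (408), Des (366), Pdgfrb (308), Reln (307), Lum (250.3), Rgs5 (202) and Lrat (85.7). The neg libraries of Dcn did not overlap those of Pdgfra, while each later pair of neighbours in this order overlapped. In sub the mean of Dcn was 2528 normalised counts per kb, again without overlap with the next, Des (650.5), and those of Reln, Pdgfra, Pdgfrb and Rgs5 lay between 435 and 513. Lum (168) and Lrat (8.83) came last in sub. In low and high the order was different: Rgs5 led with 206 and 139.8 normalised counts per kb, followed by Reln with 39.8 and 50.0. All neighbours in this order overlapped in both populations; in low 2 Rgs5 (8.30) lay below Reln (50.8), and in high 2 it was 87.3 beside 85.4 for Reln. Genes that overlap exons of Reln, Des and Pdgfra in this annotation were listed at 0 in all 12 libraries.

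Other genes by which stellate cells are known also reached their highest sums in neg and sub. Of a list of 15, 13 passed the filter on low values; 3 fell in low and in high against neg, Ecm1, Hgf and Pth1r. In low against sub limma called 0 of the 13, with 9 at an unadjusted p under 0.05, while edgeR called 1 and DESeq2 10; in high against sub limma called 0, with 8 unadjusted, edgeR 3 and DESeq2 10. In sub against neg limma, edgeR and DESeq2 each called 0, with 1 unadjusted. Hgf, the hepatocyte growth factor, was 540.3, 1782 and 546 in neg 1, 2 and 3 and 343, 50.4 and 752 in sub 1, 2 and 3, and was listed at 0 in all 6 low and high libraries (at least 396-fold lower in low than in neg; adjusted p = 0.0182, limma). Pth1r, a parathyroid hormone receptor, was 287 to 564 in neg and was also listed at 0 in all 6 low and high libraries. Ecm1, an extracellular matrix protein, was 2181 to 2755 in neg, 56.1 to 1495 in sub, 111 in low 1 and at most 2.02 in the other 5. The summed normalised count of the 15 genes was 5349 to 8739 in neg, 5232 to 11978 in sub, 0.822 to 281 in low and 4.08 to 133 in high. Gfap, a marker of quiescent rodent stellate cells, was listed at 0 in all 12 libraries, and the transcription factor Lhx2 was above 0 in neg 1 alone, at 45.6.

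Of 10 genes of stellate cell activation, limma found that 3 fell in low against sub (Col1a1, Col1a2 and Col3a1), 5 in low against neg, 4 in high against neg and 2 in high against sub, and called none higher. Not all of the 10 were high in neg and sub: Timp1, an inhibitor of matrix proteases, was listed at 0 in every library but sub 3, where it was 821. Col3a1, a fibrillar collagen, was 5475 to 8708 in neg, 4121 to 6977 in sub and 485, 0 and 1.64 in low 1, 2 and 3, and was listed at 0 in high 1, 2 and 3 (36.2-fold lower in low than in sub; adjusted p = 0.0472, limma). Col1a2, a chain of type I collagen, kept counts of 62.5 to 854 in all 6 low and high libraries, against 2918 to 6864 in neg and sub. Acta2, the smooth muscle actin of myofibroblasts, was 423, 742 and 376 in neg, 337, 3104 and 272 in sub and at most 26.7 in low and high. It fell in high against neg (at least 191-fold; adjusted p = 0.0299).

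Several of the 8 genes are also expressed by other mesenchymal cells. The summed levels of portal fibroblast and of smooth muscle genes were lower in low and high than in neg and sub, though not every gene of these lists was. The summed normalised count of 10 portal fibroblast genes was 4609.7 to 5443 in neg, 3812 to 11499.7 in sub, 90.4 to 495 in low and 86.9 to 376 in high. limma called 0 of the 10 in low against sub, with 5 at an unadjusted p under 0.05 and 0 in edgeR and 5 in DESeq2, 1 in low against neg and 3 in high against neg, all lower. Eln, elastin, fell in low and in high against neg (45.6-fold and at least 386-fold), and Dpt, dermatopontin, fell in high against neg (at least 378-fold). Entpd2, in contrast, was above 0 in neg 1 (121), low 2 (231), high 1 (204) and high 3 (225) alone; limma and edgeR called it in no comparison, while DESeq2 called it lower in sub than in neg, low and high. The summed count of 10 smooth muscle genes was 5904 to 16419.8 in neg, 8284 to 16539.9 in sub, 1430.0 to 1949 in low and 1299 to 2269 in high. Lmod1, leiomodin, was 245 to 3164 in neg and sub and was listed at 0 in 5 of the 6 low and high libraries, and it fell in low against sub (at least 735-fold; adjusted p = 0.0464, limma). Cnn1, calponin, was 421 in neg 1, was listed at 0 in neg 2, neg 3 and all 3 sub libraries, and reached 363 in low; limma and edgeR called it in no comparison, while DESeq2 called it lower in sub than in neg, low and high. Of 7 mesothelial genes 4 passed the filter, and in low against sub and low against neg limma, edgeR and DESeq2 each called 0, with 0 unadjusted. The sum of the 7 was 652 to 2007 in neg, 654 to 3337 in sub, 537 to 605 in low and 604 to 1585 in high, so that high overlapped neg and sub. Gpm6a alone held most or all of this sum in low 2 and 3 (551 and 537) and in high 1, 2 and 3 (1033, 1348 and 604). In low 1 Msln held most of it (408). The part of these cell types in the values of the 8 genes was not tested.

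Markers of further liver cells also differed between the gates. The summed normalised count of 10 endothelial genes was 101963 to 150167 in neg, 34341 to 41287 in sub, 1425 to 2362 in low and 762 to 1123 in high. It was thus lower in sub than in neg without overlap, whereas the sum of the 8 stellate cell genes overlapped between the 2 populations. Of the 10 endothelial genes limma, edgeR and DESeq2 each called 0 in sub against neg, with 0 at an unadjusted p under 0.05; in limma 3 fell in low against sub (Cdh5, Pecam1 and Stab1), 10 fell in low against neg and 8 in high against neg. The sum of 10 biliary genes ran the other way, at 21.2 to 412 in neg, 19769.6 to 36031 in sub, 66815 to 91812 in low and 62648 to 68507 in high. The sum of 10 hepatocyte genes did so too, with 395 to 1003 in neg, 6402 to 7539.8 in sub, 13981 to 21609.8 in low and 18119 to 20916 in high, and limma called 2 of them higher in sub against neg, Alb and Ahsg. Alb alone, at 8181 to 15355 in low and 10123 to 13041 in high, held most of the sums there. In each of low and high against neg, 7 of the 10 had a log2 fold change above 0 and 3 below. Apoa1 was 211 to 616 in neg, 0 to 247 in low and 7.79, 0 and 153 in high 1, 2 and 3. The 10 Kupffer cell genes summed to 0 to 576 in neg, 427 to 575 in sub, 814 to 1219.7 in low and 519 to 1526 in high, with 5 to 7 of the 10 listed at 0 in all 3 libraries of a population. Of the 4 that passed the filter limma called 1, Csf1r, higher in low and in high against neg (adjusted p = 0.0162 and 0.0189). Csf1r alone, at 670.2 to 1133 in low and 519 to 946 in high, held most of the sums there. Cd68 did not follow it, with 0 to 533 in neg, 0 to 72.7 in low and 0 to 239 in high. The 10 lymphocyte genes summed to 0.691 to 1108 in neg, 0 to 357 in sub, 0 to 105 in low and 29.4 to 555 in high. The part of these differences in the values of the 8 genes was not tested.

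**Figure D4:**
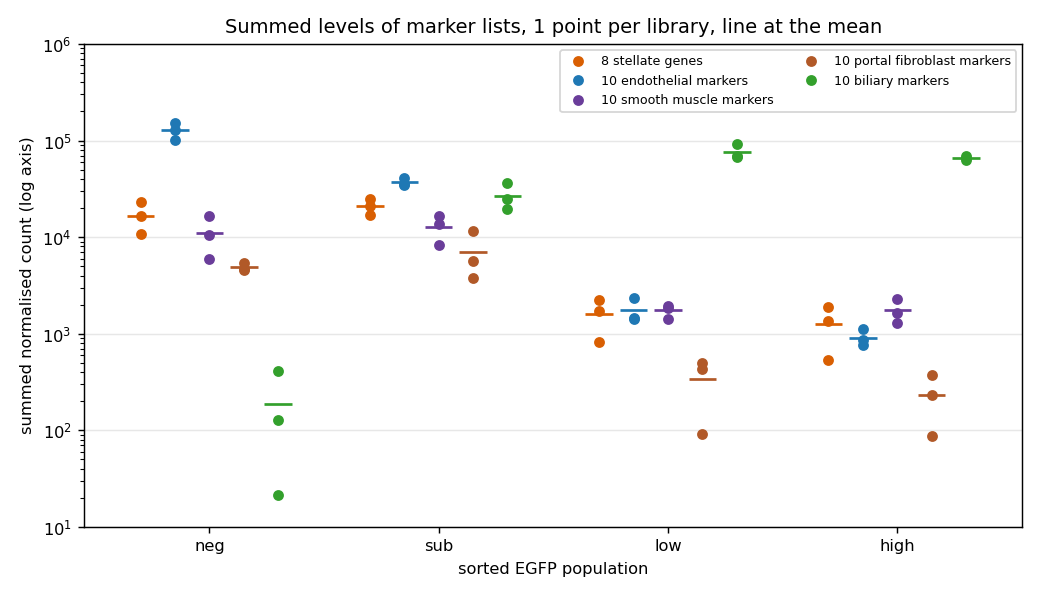
Summed normalised count of the 8 stellate cell genes and of lists of marker genes of other liver cell types in the 12 libraries, with 1 point per library on a log axis. The 8 genes lie between 10777 and 24595 in neg and sub and between 528 and 2257 in low and high, the endothelial genes drop at each step from neg to sub to low, and the biliary genes are high in sub, low and high.

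The 8 genes followed their shared pattern to different degrees. The Pearson correlation of each gene with the mean of the 8 standardised log2 profiles, in which that gene is itself included, was 0.974 for Des, 0.955 for Dcn, 0.929 for Pdgfrb, 0.793 for Pdgfra, 0.790 for Lrat, 0.789 for Reln, 0.695 for Lum and 0.577 for Rgs5 over the 12 libraries. Outside the 8, the closest of the 9606 genes whose normalised counts averaged 100 or more were Fgl2 (r = 0.984), Col6a2 (0.981), Tie1 (0.979), Svep1 (0.977) and Tgfbi (0.976). These values describe 12 libraries that fall into 4 gates, and 346 genes reached an r of 0.8. Fgl2, fibrinogen-like protein, was 356 to 1451 in neg and sub and at most 2.97 in low and high. Tie1, an endothelial receptor, was 1191 to 4425 in neg and sub and at most 23.0 in low and high, so the likeness was not limited to genes of mesenchymal cells.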

How the data were processed

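Sorted liver cell populations were profiled by total RNA-seq (SMARTer Stranded Total RNA Pico v2, random-primed, per the labels' protocols), 3 libraries each. Normalised counts per gene symbol, a signal with 1 column for each library, were deposited by the authors as a single table; the submitters' processing notes name Salmon, DESeq2 1.26.0 and mm10, and the counting annotation and use of strand are not given in the sources used here. In each column 100% of the values above 0 were whole multiples (relative tolerance 1e-06) of the smallest value, 0.691 to 1.22, so reads were recovered, 8775387 to 15535588 per library, for the count tests. Without molecular identifiers, limits from reads cover counting error only.

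Genes with a mean of at least 10 (16128) were tested as log2(normalised count + 1) with limma 3.58.1 in R 4.3.3 (trend), population as the only term, on all 12 libraries, two-sided, with Benjamini-Hochberg adjustment at 0.05 over all genes; log2 fold changes understate changes of low genes. Adjusted p-values are limma's unless another tool is named. A population with at most 3 reads in every library counted as at the floor, and folds against it are lower bounds taken against the mean value of 3 reads per library (2.41 to 2.88). Fold changes without a log2 are ratios of mean normalised counts. Each choice was varied in turn: the pseudocount (0.5 and 5), the filter (none, or a mean of 100), equal library totals, the replicate number as a block, fits without the other populations, fits that left out 1 library, and edgeR 4.0.16 and DESeq2 1.42.0 on recovered reads of all 12 libraries.

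Named genes were the 8, at most 4 per list (those past the threshold with the highest mean, else the 2 of highest mean) and the 5 of most similar pattern; Gfap, Lhx2, Pdgfa, Lmod1, Timp1, Omd, Entpd2, Cnn1 and Cyp26b1 were named after their values were seen. The 8 genes and all lists were chosen with earlier results of these data known. Gene positions are from GENCODE M21 and promoters from RefSeq (GRCm38.p6).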

Additional observations from a re-analysis of the deposited data

How the results depend on the processing

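Fitting only the 2 populations compared left 0 of the 8 genes called in low against sub (3 in the analysis reported above), 1 in low against neg (4), 1 in high against neg (4) and 0 in high against sub (4). DESeq2 called 7 in low against sub, 7 in low against neg and 2 in high against low (0). A pseudocount of 0.5 left 1 in low against sub and 2 in high against sub, and no filter on low values left 1 in low against sub. Over all genes, the pseudocount of 0.5 gave 99 and 131 calls of 16128 in these comparisons. Without the filter there were 105 of 20656 in low against sub. The cause was not tested. Leaving out 1 library at a time gave 0 to 0 called genes in sub against neg, 0 to 2 in low against sub, 0 to 1 in high against low, 1 to 3 in low against neg, 3 to 5 in high against neg, 1 to 4 in high against sub and 3 to 5 across the 4 populations. Without sub 2 no call was left in low against sub, and without sub 2 or sub 3 Pdgfra alone was left in high against sub; without neg 2, neg 3 or low 2 Des alone was left in low against neg.

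Direction changed only for differences that had not passed. Over the libraries left out, the log2 fold change of sub against neg ranged from -0.03 to 0.65 for Pdgfra, from -0.62 to 0.14 for Dcn and from -3.68 to 2.67 for Lum. That of high against low ranged from -0.57 to 1.99 for Reln, from -0.29 to 1.90 for Des, from -1.32 to 1.38 for Rgs5 and from -1.70 to 2.94 for Dcn, and that of low against neg from -1.96 to 0.73 for Rgs5. For Rgs5, edgeR and DESeq2 gave -0.55 and -0.56 in high against low and 0.16 and 0.03 in low against neg. Of 1008 log2 fold changes of the 8 genes under the alternatives, 874 kept direction and side of the threshold.

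Over all genes tested, limma called 192 in sub against neg, 120 in low against sub, 0 in high against low, 757 in low against neg, 757 in high against neg and 159 in high against sub. DESeq2 called 1698, 1593, 646, 2352, 2257 and 1485 and fits of only the populations compared 0, 0, 0, 203, 341 and 8; in high against low edgeR called 34, and no filter and the replicate block 1 each. Leaving out 1 library gave 149 to 317, 42 to 170, 0 to 35, 465 to 737, 467 to 797 and 74 to 245. The split also moved: DESeq2 called 785 higher and 808 lower in low against sub, where limma called 21 and 99, 766 and 719 in high against sub (limma 19 and 140), and 1026 and 672 in sub against neg (limma 168 and 24).

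The correlation of deviations from the group means was near 0, at -0.0161 to 0.0266 (mean 0.00881) for libraries of the same number and -0.0447 to 0.0234 (mean -0.00439) for those of different numbers, and 5 of 12 libraries correlated best with their own number in every other population. The sample descriptions share a suffix across the 4 populations that goes with the number, and the labels do not say what it names, so whether the libraries are paired is not known; the correlations are too small to take the numbers as pairs, and the best matches are at most a hint. With the replicate block 0, 3, 0, 3, 4 and 3 of the 8 genes were called in sub against neg, low against sub, high against low, low against neg, high against neg and high against sub, and 5 across the 4 populations. Of all 16128 genes tested, the block called 180, 83, 1, 720, 715 and 130 in the same order, and 621 across the 4 populations. Of the calls reported above, the replicate block lost Pdgfrb in low against neg (adjusted p = 0.0517) and Des in high against sub (0.063). Genes near the value of 1 read, and the 3 libraries per population, limit what these data can separate.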
